A study of Mus musculus with 16 samples.

Results

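The genes described here are the odorant receptors of the mouse chromosome 10 cluster whose symbols run from Olfr763 to Olfr827, with pseudogenes left out. They were taken by symbol, and the cluster was chosen with earlier results of these data known. The array measured 54 of them, out of 1080 odorant receptors and 19505 named genes. Each had 1 probe set, and all 54 lie on chromosome 10 in the gene table of assembly GRCm38.p6. By their MOR names, a numbering that groups mouse receptors by sequence, 53 of them belong to 13 families, and Olfr765 carries no such name.

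Odorant receptors are membrane proteins of olfactory sensory neurons that bind volatile molecules and signal through a G protein, cyclic AMP and an ion channel. Their genes lie in clusters on many chromosomes, and each mature neuron expresses a single receptor gene. The amount of a receptor's transcript in a sorted fraction therefore depends on how many neurons chose that receptor, and on how much transcript each of them holds. On an array of pooled cells, fewer neurons of a type and less RNA per neuron cannot be told apart.

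S100a5 encodes a calcium-binding protein whose level in olfactory sensory neurons follows their activity. In the S100a5-tauGFP mice used throughout, the S100a5 promoter drives a green fluorescent protein, so that GFP+ cells include neurons with recent activity. Mice of both sexes, 7 to 12 weeks old, sat singly in chambers under an air flow of 3.1 L per min for 40 h. From 26 h on, they received 10 s pulses of 2-hexanone, a small ketone, or of filtered air (vehicle) every 20 min. The 4 groups were GFP+ and GFP- cells of 2-hexanone mice and GFP+ and GFP- cells of vehicle mice, sorted from dissociated olfactory mucosa. Each group held 4 arrays, each from a pool of 3 mice, and both fractions of a pool were taken to come from the same mice (8 pools, 24 mice). The GFP- fraction holds every other cell type of the mucosa as well as the remaining neurons.

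Values are log2 signals as the authors deposited them. They reach 19.81, above the 16 bits of a scanner, so an unstated transformation acts on every difference and fold. The median signal of an array was 5.70 to 5.76 for GFP+ cells and 6.06 to 6.12 for GFP- cells. The highest antigenomic background bin, the array's measure of non-specific binding, served as the background floor and lay between 6.16 and 7.33. S100a5 stood at 16.17 to 16.98 in GFP+ and 14.89 to 15.23 in GFP- cells of 2-hexanone pools, and at 16.11 to 17.02 in GFP+ and 14.54 to 15.60 in GFP- cells of vehicle pools. It was higher in GFP+ cells (log2 difference 1.61 ± 0.25 SE, adjusted p = 9.83e-05, and 1.38 ± 0.25, adjusted p = 0.000514, in 2-hexanone and vehicle pools). Omp, which marks mature olfactory neurons, did not pass (0.09 ± 0.14, adjusted p = 0.733, and 0.01 ± 0.14, adjusted p = 0.988), at levels near the top of the scale.

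The members of 1 family resemble each other closely, which the start of their coding sequences shows. RefSeq windows of GRCm38.p6 matched 43 of the 54 receptors, and 42 of these windows hold an ATG at the annotated start. Over the first 50 coding bases of these 42 genes, 96 pairs within a family had a median of 38 identical bases, and 765 other pairs had a median of 24. The pairs below are among the closest. In some of them both partners were called in the same direction in the sort, and in others only 1 was called. Whether the partners of a pair differed in the sort was not tested. Capitals mark bases at which the partners differ. The pairs were chosen after the values were seen. The first pair lies on the minus strand at chr10:130180829-130180878 and chr10:130163275-130163324, and both were lower in GFP+ cells.
Olfr826: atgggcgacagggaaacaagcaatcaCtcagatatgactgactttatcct
Olfr825: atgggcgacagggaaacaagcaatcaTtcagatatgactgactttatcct

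Both members of the second pair, at chr10:129912227-129912276 (minus strand) and chr10:130074412-130074461 (plus strand), were also lower in GFP+ cells. They share 46 of the 50 bases.
Olfr816: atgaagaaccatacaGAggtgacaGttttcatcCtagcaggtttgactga
Olfr822: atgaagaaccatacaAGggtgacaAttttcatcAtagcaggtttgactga

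In the next pair, at chr10:129540539-129540588 (plus strand) and chr10:129626010-129626059 (minus strand), Olfr792 was lower in GFP+ cells and Olfr798 was not called. They share 48 bases.
Olfr792: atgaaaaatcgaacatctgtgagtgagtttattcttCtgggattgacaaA
Olfr798: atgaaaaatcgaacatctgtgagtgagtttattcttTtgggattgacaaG

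Olfr799 was higher in GFP+ cells and its relative Olfr781 was not called. They lie on the plus strand at chr10:129647130-129647179 and chr10:129332883-129332932 and share 46 bases.
Olfr799: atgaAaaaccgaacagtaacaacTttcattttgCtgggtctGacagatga
Olfr781: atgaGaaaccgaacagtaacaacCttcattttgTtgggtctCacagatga

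The last pair are neighbours on the plus strand, at chr10:129260963-129261012 and chr10:129250536-129250585, with 45 bases in common. Olfr776 was higher in GFP+ cells and Olfr775 was not called.
Olfr776: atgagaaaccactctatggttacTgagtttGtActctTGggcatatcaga
Olfr775: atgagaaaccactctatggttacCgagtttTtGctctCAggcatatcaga

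Over all 861 pairs, the sort differences (GFP+ minus GFP-, log2) of 2 genes of the same family lay a median of 1.47 apart in 2-hexanone and 1.20 in vehicle pools. For pairs of different families the medians were 1.64 and 1.60. These are descriptions, since pairs share genes. Probe sets of near-identical receptors may share target sequence, and their probe sequences were not analysed here.

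Most of the 54 receptors were measured above background in GFP- cells, and fewer in GFP+ cells. All 4 arrays lay above the floor for 30 receptors in GFP+ and 44 in GFP- cells of 2-hexanone pools, and for 34 in GFP+ and 40 in GFP- cells of vehicle pools. None of the 4 arrays did so for 14 and 5 receptors in 2-hexanone GFP+ and GFP- cells, and for 9 and 5 in vehicle GFP+ and GFP- cells. On at least 1 of the 16 arrays 52 receptors exceeded the floor, and on all 16 arrays 26 did. Olfr768 and Olfr782 never did, so their differences rest on values below background.

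The median of the receptors' mean levels was 8.0 in GFP+ and 9.41 in GFP- cells of 2-hexanone pools, and 8.01 in GFP+ and 9.12 in GFP- cells of vehicle pools. For the 1026 other receptors the medians were 8.12 in GFP+ and 7.74 in GFP- cells of 2-hexanone pools, and 8.22 in GFP+ and 7.89 in GFP- cells of vehicle pools. Within a group, the median SD over 4 arrays was 0.49 and 0.44 in 2-hexanone GFP+ and GFP- cells and 0.51 and 0.54 in vehicle GFP+ and GFP- cells. Over all 16 arrays, Olfr820, Olfr788, Olfr776, Olfr771 and Olfr810 had the highest means. Probe sets differ in how brightly they bind, so this order describes signals and not transcript numbers.

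**Figure D1:**
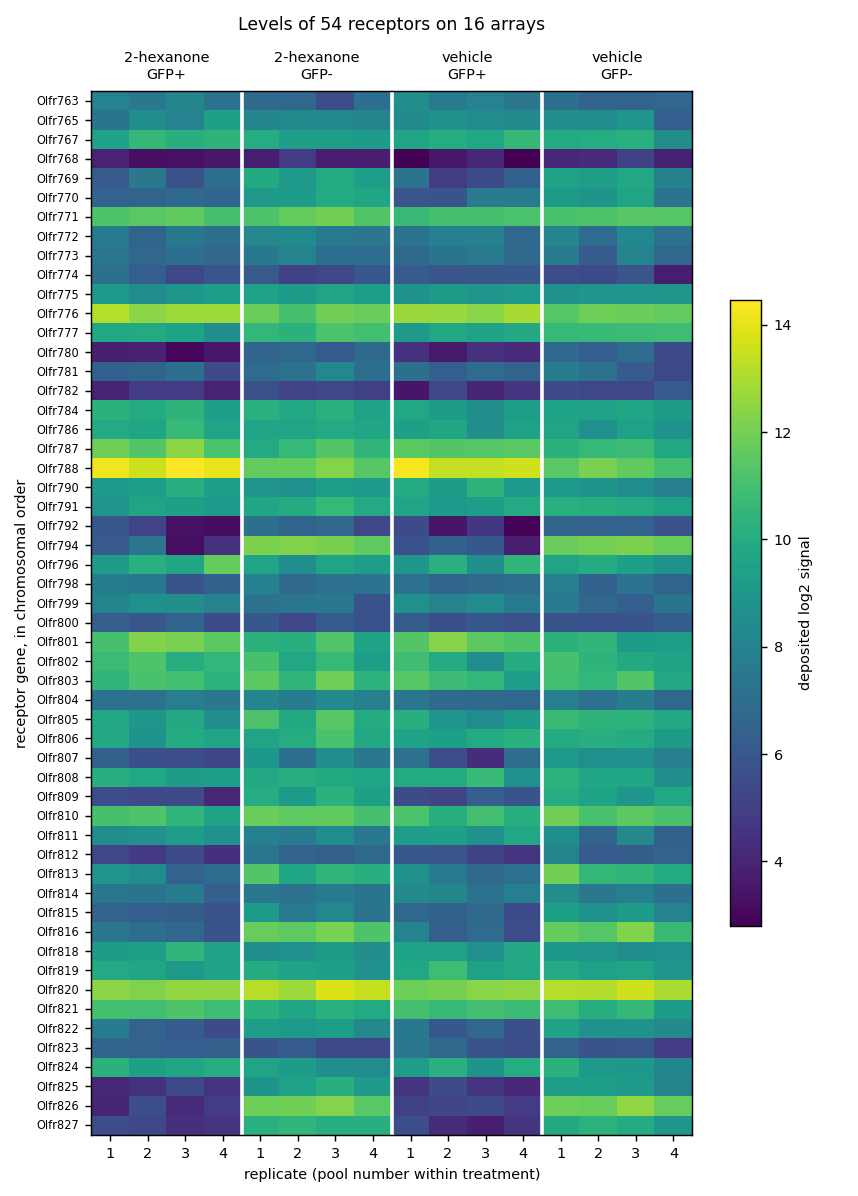
Deposited log2 signal of the 54 receptors (rows, in chromosomal order) on 16 arrays (columns, 4 replicates per group), coloured from dark (low) to yellow (high). Olfr788 is brightest in both GFP+ groups, Olfr820 is bright in all 4 groups, and Olfr794, Olfr816, Olfr826 and Olfr827 are dark in GFP+ and bright in GFP- samples.

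The first comparison asked which receptors of the cluster separated the sorted fractions. In 2-hexanone pools 19 of the 54 (35.2%) were lower and 8 (14.8%) higher in GFP+ cells, and 27 were not called. Over all 22206 probe sets 9.56% were called lower and 5.29% higher (limma, Benjamini-Hochberg adjusted p below 0.05). In vehicle pools, again, 19 were lower, 8 higher and 27 not called, against 9.86% lower and 5.83% higher over all probe sets. Called lower in both treatments were 17 receptors, against 8.37% of all probe sets, and called higher in both were 6, against 3.03%. None was called in opposite directions.

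The median sort difference of the 54 receptors was -0.43 in 2-hexanone pools and -0.17 in vehicle pools, while the medians over all probe sets were 0.14 and 0.14. The vehicle median is small beside its spread over the 4 pools (SD 0.37), and was -0.28, -0.07 and -0.35 without vehicle pool 2, 3 and 4. Single receptors ranged from -7.26 to 2.29 in 2-hexanone and from -6.83 to 2.13 in vehicle pools. How the calls divided depended on scale. After the arrays were centred on their medians, 15 receptors were higher and 17 lower in 2-hexanone pools, and 13 higher and 17 lower in vehicle pools. Under the same scaling 27.8% of the 54 receptors were higher in 2-hexanone and 24.1% in vehicle pools, against 38.4% and 40.5% of all probe sets, of which 7.76% and 7.88% were lower. Centring moved the medians over all probe sets to 0.49 and 0.50, and the receptors' median to -0.08 and 0.19, so that it lay below that of all probe sets by the same -0.57 and -0.31.

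Other receptors divided the other way. Of the 1026 others, 383 (37.3%) were called higher and 216 (21.1%) lower in 2-hexanone pools, with a median difference of 0.52, and 381 (37.1%) were higher and 220 (21.4%) lower in vehicle pools, with a median of 0.46. Receptors of chromosome 9 had 55 higher and 24 lower of 129 in 2-hexanone pools (median 0.83). Those of chromosome 11 had 19 higher and 26 lower (33.3%) of 78 (0.20), and those of chromosome 17 had 15 higher and 13 lower of 49 (0.18). In vehicle pools the chromosome 9, 11 and 17 receptors gave medians of 0.90, 0.08 and 0.14. Their calls there, in the same order, were 55 higher and 25 lower, 18 higher and 25 lower, and 15 higher and 13 lower. The difference between clusters was described and not tested, because receptors of 1 cluster are not replicates.

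**Figure D2:**
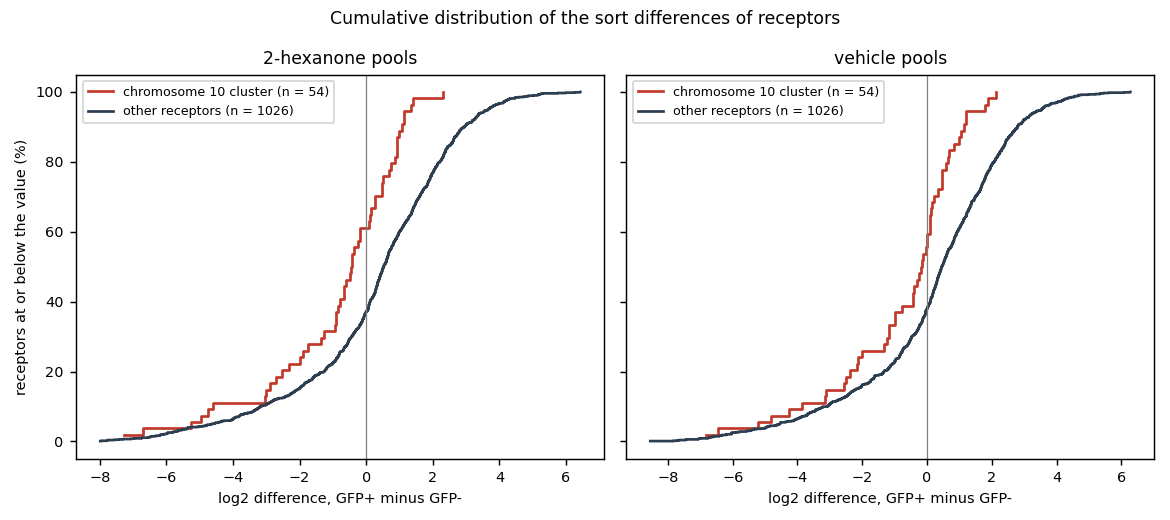
Share of receptors (percent) at or below a given sort difference (log2, GFP+ minus GFP-) for the 54 receptors of the chromosome 10 cluster and the 1026 other receptors, in 2-hexanone pools (left) and vehicle pools (right). The curve of the cluster lies to the left of the other receptors over most of the range, with medians of -0.43 against 0.52 in 2-hexanone and -0.17 against 0.46 in vehicle pools, and ends near 2 while that of the other receptors extends past 6.

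Pool by pool, 20 of the 54 receptors (37.0%) were lower in GFP+ cells in 8 of 8 pools, and 10 (18.5%) were higher in 8 of 8. Over all probe sets 10.9% were lower in every pool and 10.9% higher. Among the 1026 other receptors 222 (21.6%) were lower and 415 (40.4%) higher in every pool. Of the chromosome 11 receptors 33.3% were lower and 28.2% higher in every pool. The shares were 28.6% and 30.6% for chromosome 17, and 19.4% and 45.0% for chromosome 9. The 20 receptors of this cluster that were lower in every pool include Olfr804 and Olfr810, which were not called in either treatment. With the pool as a fixed block in the fit, both passed in 2-hexanone pools (adjusted p = 0.0252 and 0.00752), and Olfr810 passed in vehicle pools (0.0183).

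Along the chromosome, receptors that were lower lay on both sides of the cluster, with the MOR210 genes at its end among the most extreme. In the first 27 genes 7 were lower and 5 higher in 2-hexanone pools, and 8 lower and 6 higher in vehicle pools. In the last 27 genes 12 were lower and 3 higher in 2-hexanone pools, and 11 lower and 2 higher in vehicle pools. Sort differences of 53 pairs of neighbouring genes correlated at r = 0.30 (rho = 0.24) in 2-hexanone and r = 0.32 (rho = 0.19) in vehicle pools, which describes genes that share arrays and often a family.

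**Figure D3:**
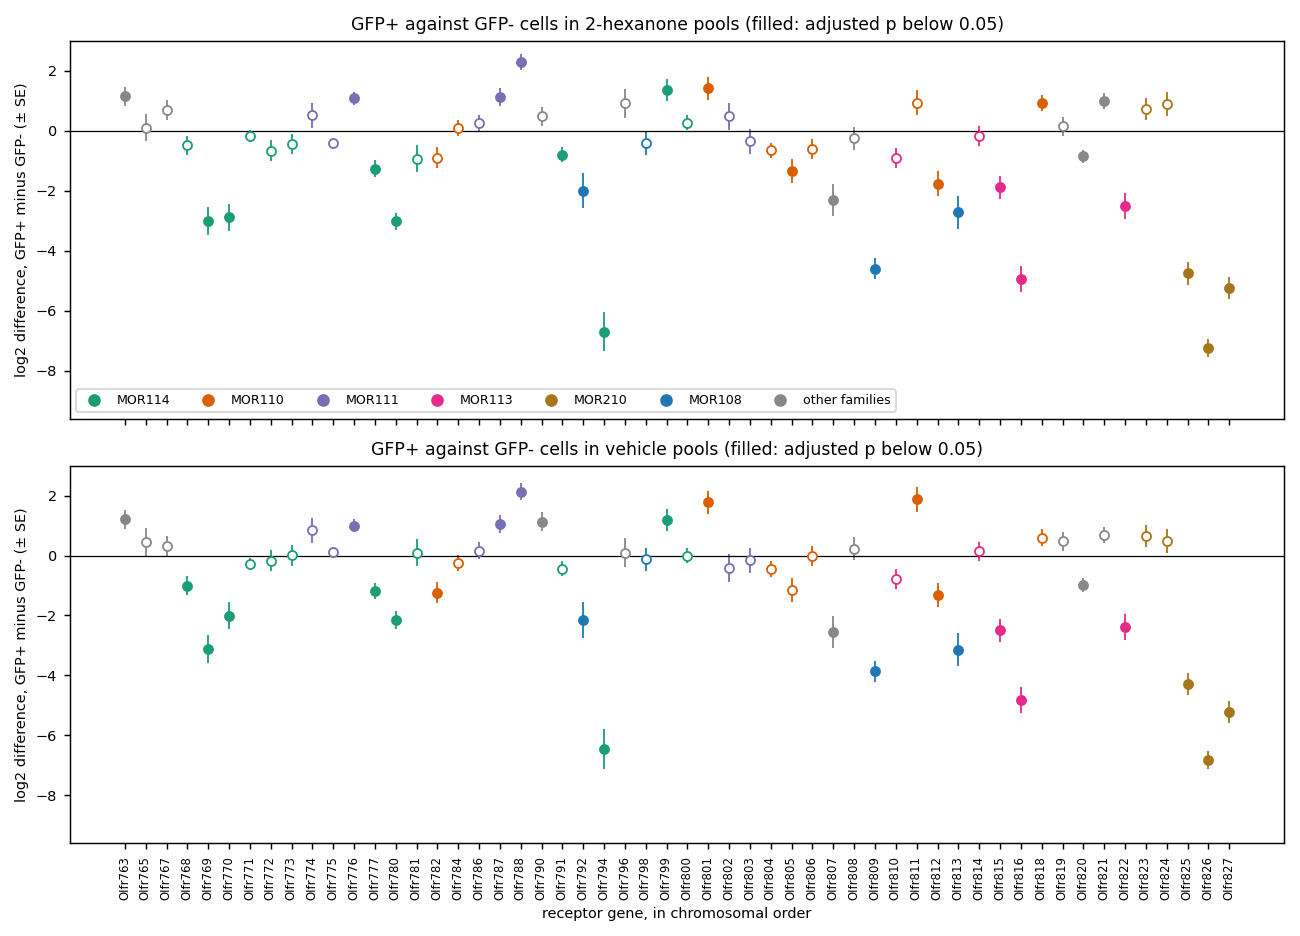
Sort difference (log2, GFP+ minus GFP-, ± SE, 4 pools) of each receptor in chromosomal order, in 2-hexanone pools (top) and vehicle pools (bottom), coloured by MOR family and filled where adjusted p was below 0.05. The MOR210 genes Olfr825, Olfr826 and Olfr827 and the MOR114 gene Olfr794 reach -4.28 to -7.26, and Olfr788 is highest at 2.29 and 2.13.

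The MOR210 family closes the cluster with 5 neighbouring genes, Olfr823 to Olfr827, and held the most extreme member. In both treatments 3 of the 5 were lower and 2 were not called, with median differences of -4.76 in 2-hexanone and -4.28 in vehicle pools. Olfr826 (MOR210-2) stood at 4.02, 5.59, 4.17 and 4.81 in GFP+ cells of 2-hexanone pools 1 to 4, against 11.89, 11.98, 12.30 and 11.46 in their GFP- cells. In vehicle pools it stood at 5.10, 5.25, 5.40 and 4.85 in GFP+ cells, against 11.90, 11.73, 12.52 and 11.75 in GFP- cells. Every GFP+ array lay under its background floor and every GFP- array far above it. Olfr826 was at least 36.2-fold lower in GFP+ cells of 2-hexanone pools (-7.26 ± 0.30 SE, adjusted p = 1.56e-11) and at least 45.9-fold lower in vehicle pools (-6.83 ± 0.30, adjusted p = 3.7e-11), where such bounds set the dimmer arrays at their floor.

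Its neighbours Olfr825 and Olfr827 went the same way. Olfr827 stood at 5.57, 5.32, 4.37 and 4.56 in GFP+ cells, against 10.19, 10.49, 10.05 and 10.09 in GFP- cells of 2-hexanone pools. In vehicle pools it had 5.58, 4.24, 3.76 and 4.59 in GFP+ cells, against 9.90, 10.33, 9.98 and 8.86 in GFP- cells. The fractions did not overlap in either treatment, and the folds were at least 11.1 and at least 9.90 (-5.25 ± 0.37, adjusted p = 6.17e-09, and -5.22 ± 0.37, adjusted p = 6.88e-09). Olfr825, which differs from Olfr826 at a single one of the 50 bases shown, was at least 6.36-fold lower in 2-hexanone (-4.76 ± 0.37, adjusted p = 2.21e-08) and at least 5.69-fold lower in vehicle pools (-4.28 ± 0.37, adjusted p = 9.07e-08).

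The other MOR210 genes, Olfr823 and Olfr824, lie directly before these 3 and were not called. Olfr824 had 10.29, 9.41, 9.64 and 10.01 in GFP+ cells, against 9.61, 9.23, 8.58 and 8.42 in GFP- cells of 2-hexanone pools, and 9.31, 10.20, 8.84 and 10.03 against 10.27, 9.04, 9.01 and 8.14 in GFP+ and GFP- cells of vehicle pools. The fractions overlapped in both treatments (0.88 ± 0.40, adjusted p = 0.164, and 0.48 ± 0.40, adjusted p = 0.471). Olfr823 averaged 6.41 in GFP+ and 5.67 in GFP- cells of 2-hexanone pools (adjusted p = 0.214), with no array of these pools above the floor. With arrays centred on their medians Olfr823 and Olfr824 passed as higher in 2-hexanone pools (adjusted p = 0.0257 and 0.0205), and Olfr823 also in vehicle pools (0.0349).

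**Figure D4:**
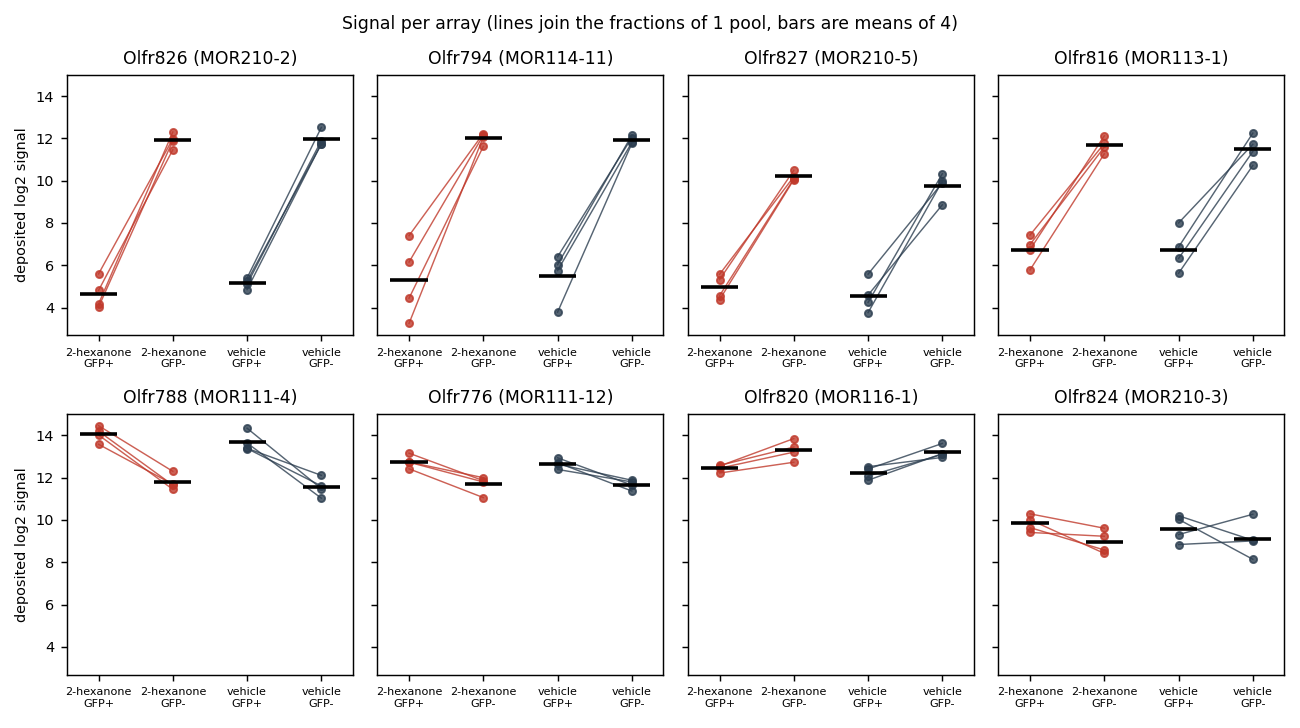
Deposited log2 signal of 8 receptors in each array, with lines joining the GFP+ and GFP- samples of a pool and black bars at the means of 4 arrays, 2-hexanone in red and vehicle in dark blue. Olfr826, Olfr794, Olfr827 and Olfr816 lie between 3.25 and 8.0 in GFP+ and between 8.86 and 12.52 in GFP- samples, Olfr788 and Olfr776 are higher in GFP+ samples, Olfr820 is slightly lower in them, and the fractions of Olfr824 overlap.

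MOR113 and MOR108 had no receptor called higher. Of 5 MOR113 genes 3 were lower in both treatments (medians -1.89 in 2-hexanone and -2.39 in vehicle pools). Olfr816 (MOR113-1) led them, with 7.43, 6.98, 6.74 and 5.78 in GFP+ cells, against 11.76, 11.59, 12.12 and 11.27 in GFP- cells of 2-hexanone pools. In vehicle pools it had 8.0, 6.32, 6.86 and 5.62 in GFP+ cells, against 11.72, 11.38, 12.25 and 10.72 in GFP- cells. All GFP+ values lay below all GFP- values (-4.95 ± 0.44, adjusted p = 1.1e-07, and -4.82 ± 0.44, adjusted p = 1.64e-07). Above the floor were 3 of 4 GFP+ arrays of 2-hexanone pools and 2 of 4 of vehicle pools, and with the others set to it the folds were 27.8 and 23.8.

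Its close relative Olfr822 was lower by a smaller amount in 2-hexanone (-2.52 ± 0.44, adjusted p = 0.00035) and vehicle pools (-2.39 ± 0.44, adjusted p = 0.000607), as was Olfr815 (-1.89 ± 0.39, adjusted p = 0.0018, and -2.49 ± 0.39, adjusted p = 0.000114). Both were named after their values were seen. Above the floor were 2 of 4 GFP+ arrays of 2-hexanone and 1 of 4 of vehicle pools for Olfr822, and none and 3 of 4 for Olfr815. Olfr814 was not called (-0.17 ± 0.32, adjusted p = 0.786, and 0.14 ± 0.32, adjusted p = 0.833). Olfr810, among the brightest of the cluster, had means of 10.58 in GFP+ and 11.50 in GFP- cells of 2-hexanone pools and 10.62 and 11.40 in those of vehicle pools, and was not called in the fit without blocks (adjusted p = 0.0798 and 0.137). In 2-hexanone pools it passed with quantile normalization (0.0448).

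Among 4 MOR108 genes 3 were lower in both treatments (medians -2.36 and -2.65). Olfr809 (MOR108-4) had 5.56, 5.38, 5.47 and 4.06 in GFP+ cells, against 10.04, 9.17, 10.26 and 9.43 in GFP- cells of 2-hexanone pools, and 5.52, 5.23, 6.27 and 5.82 against 10.06, 9.57, 8.89 and 9.80 in GFP+ and GFP- cells of vehicle pools. Its GFP+ arrays all lay under the floor, so it was at least 7.97-fold and at least 8.71-fold lower (-4.61 ± 0.35, adjusted p = 1.59e-08, and -3.87 ± 0.35, adjusted p = 1.44e-07). Olfr813 stayed measurable in most GFP+ samples, with 8.89, 8.48, 6.45 and 6.93 against 11.36, 9.69, 10.41 and 10.17 in GFP+ and GFP- cells of 2-hexanone pools. It was lower by -2.72 ± 0.55 (adjusted p = 0.00154) there, and 8.80-fold lower in vehicle pools (-3.14 ± 0.55, adjusted p = 0.000389). Olfr792, named after its values were seen, passed (adjusted p = 0.0294 and 0.0176), but only 1 of its 16 arrays rose above the floor. Its call was lost without 2-hexanone pool 2, 3 or 4 (adjusted p = 0.0619, 0.179 and 0.0571) and without vehicle pool 2 or 4 (0.112 and 0.0695), and in 2-hexanone pools with quantile normalization (0.0646). Olfr798 had -0.43 ± 0.38 (adjusted p = 0.525) and -0.12 ± 0.38 (adjusted p = 0.876).

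MOR114, the largest family with 13 genes, held members of both directions. In each treatment 6 were lower, 1 was higher and 6 were not called, with medians of -0.80 in 2-hexanone and -0.44 in vehicle pools. Olfr794 (MOR114-11) had 6.15, 7.40, 3.25 and 4.44 in GFP+ cells, against 12.15, 12.23, 12.07 and 11.62 in GFP- cells of 2-hexanone pools. In vehicle pools the values were 5.75, 6.4, 6.03 and 3.78 in GFP+ cells, against 11.81, 12.04, 12.15 and 11.76 in GFP- cells. Its GFP+ values spread widely, but each lay more than 4 log2 units under every GFP- value (-6.71 ± 0.66, adjusted p = 4.29e-07, and -6.45 ± 0.66, adjusted p = 7.3e-07). Only 1 of 4 GFP+ arrays exceeded the floor in each treatment, and with the others set to it the folds were 33.2 and 44.5.

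Olfr780 (MOR114-12) had 3.79, 3.87, 3.01 and 3.54 in GFP+ cells, against 6.62, 6.74, 6.12 and 6.84 in GFP- cells of 2-hexanone pools. Those GFP- values lay around the background floor, so no fold is given for it, although the values did not overlap (-3.03 ± 0.30, adjusted p = 4.16e-07). In vehicle pools the difference was -2.15 ± 0.30 (adjusted p = 2.79e-05). Also lower in both treatments, and named after their values were seen, were Olfr769 (-3.01 and -3.12, adjusted p = 0.000141 and 9.67e-05), Olfr770 (-2.89 and -2.01, adjusted p = 0.000128 and 0.00417) and Olfr777 (-1.27 and -1.19, adjusted p = 0.00304 and 0.00514). Above the floor were 2 and 1 of 4 GFP+ arrays of 2-hexanone and vehicle pools for Olfr769, and 3 and 2 of 4 for Olfr770. Olfr777 is the clearest of these in level, since all 16 of its values lay at 8.51 or above. It was 2.40-fold lower in 2-hexanone and 2.28-fold lower in vehicle pools.

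The remaining MOR114 calls were weaker. Olfr791 was lower in 2-hexanone pools (-0.80 ± 0.25, adjusted p = 0.0343) and Olfr768 in vehicle pools (-1.0 ± 0.32, adjusted p = 0.0429). Neither kept its call with arrays centred on their medians (adjusted p = 0.137 and 0.105), and Olfr768 lay under the floor throughout. Centring also gave a call as higher to Olfr800 in 2-hexanone pools (adjusted p = 0.0439), where none of its arrays lay above the floor. Without 2-hexanone pool 1, 3 or 4 Olfr791 had adjusted p = 0.0699, 0.136 and 0.125. The call of Olfr768 was lost without vehicle pool 1, 2 or 4 (adjusted p = 0.132, 0.0878 and 0.104), and without 2-hexanone pool 1, 3 or 4 in the shared fit (0.0524, 0.0558 and 0.0624), or with only the arrays compared (0.0802).

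Olfr799 (MOR114-2) was the member of its family called higher. It had 8.07, 8.63, 8.58 and 7.97 in GFP+ cells, against 7.17, 7.39, 7.53 and 5.75 in GFP- cells of 2-hexanone pools, and 8.63, 7.95, 8.42 and 7.58 against 7.56, 6.64, 6.3 and 7.32 in GFP+ and GFP- cells of vehicle pools. The fractions did not overlap (1.35 ± 0.36, adjusted p = 0.0151, and 1.19 ± 0.36, adjusted p = 0.0319). Above the floor were 3 of 4 GFP- arrays of 2-hexanone and 2 of 4 of vehicle pools. The call was lost without 2-hexanone pool 4 (adjusted p = 0.0512) and without vehicle pool 1, 2 or 3 (0.0539, 0.112 and 0.204). Its relative Olfr781 had -0.93 ± 0.44 (adjusted p = 0.186) and 0.10 ± 0.44 (adjusted p = 0.918). Olfr771 was bright in both fractions, with means of 11.34 in GFP+ and 11.53 in GFP- cells of 2-hexanone pools, and was not called (-0.19 ± 0.20, adjusted p = 0.591, and -0.29 ± 0.20, adjusted p = 0.361).

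MOR111 had no receptor called lower. Of its 8 genes 3 were higher in both treatments and 5 were not called, with medians of 0.49 and 0.50. Centring each array on its median added Olfr774 in vehicle pools (adjusted p = 0.0256), where 1 of 4 GFP+ arrays and no GFP- array lay above the floor. Olfr788 (MOR111-4) had the highest level of the cluster in GFP+ cells. It stood at 14.20, 13.58, 14.46 and 14.02 in GFP+ cells, against 11.65, 11.69, 12.30 and 11.45 in GFP- cells of 2-hexanone pools, and at 14.34, 13.39, 13.38 and 13.64 against 11.48, 12.11, 11.61 and 11.03 in GFP+ and GFP- cells of vehicle pools. Every GFP+ value exceeded every GFP- value, and the receptor was 4.90-fold higher in 2-hexanone (2.29 ± 0.27, adjusted p = 5.09e-06) and 4.38-fold higher in vehicle pools (2.13 ± 0.27, adjusted p = 1.25e-05).

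Olfr776 (MOR111-12) was the second bright receptor that was higher in GFP+ cells. It had 13.16, 12.42, 12.74 and 12.73 in GFP+ cells, against 11.86, 11.06, 12.00 and 11.80 in GFP- cells of 2-hexanone pools, and 12.71, 12.64, 12.39 and 12.94 against 11.37, 11.88, 11.80 and 11.65 in those of vehicle pools. The folds were 2.12 (1.09 ± 0.22, adjusted p = 0.00169) and 1.99 (1.00 ± 0.22, adjusted p = 0.00353). Its neighbour and relative Olfr775 was not called (-0.42 ± 0.19, adjusted p = 0.17, and 0.10 ± 0.19, adjusted p = 0.776). Olfr787 was 2.20-fold higher in 2-hexanone (1.14 ± 0.30, adjusted p = 0.0125) and 2.09-fold higher in vehicle pools (1.06 ± 0.30, adjusted p = 0.0187). It was no longer called without 2-hexanone pool 1 (adjusted p = 0.117) or without vehicle pool 1 or 4 (0.0768 and 0.13). Olfr802 spread widely and had 0.47 ± 0.46 (adjusted p = 0.563) and -0.41 ± 0.46 (adjusted p = 0.617).

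MOR110, with 9 genes, had 2 higher and 2 lower in each treatment, with Olfr801 and Olfr812 called in both. Olfr801 had 11.06, 12.25, 12.13 and 11.53 in GFP+ cells, against 10.30, 10.17, 11.29 and 9.58 in GFP- cells of 2-hexanone pools, and 11.33, 12.32, 11.51 and 11.27 against 10.31, 10.49, 9.22 and 9.31 in those of vehicle pools. It was 2.66-fold higher in 2-hexanone (1.41 ± 0.38, adjusted p = 0.0154) and 3.43-fold higher in vehicle pools (1.78 ± 0.38, adjusted p = 0.00254), and was not called in 2-hexanone pools without pool 2 or pool 4 (0.118 and 0.0883).

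Olfr811 was higher in vehicle pools, with 9.32, 9.38, 8.78 and 9.77 in GFP+ cells, against 8.53, 6.59, 8.27 and 6.37 in GFP- cells (1.87 ± 0.41, adjusted p = 0.00305). In 2-hexanone pools it had 8.53, 8.69, 9.35 and 8.71 in GFP+ cells, against 7.93, 7.64, 8.49 and 7.48 in GFP- cells, and did not pass (0.93 ± 0.41, adjusted p = 0.148). The test of the change between treatments gave -0.93 ± 0.58 (unadjusted p = 0.123), so a different response was not shown. With centred arrays it passed in 2-hexanone pools as well (adjusted p = 0.0202). Olfr818, chosen after its values were seen, passed in 2-hexanone pools (0.92 ± 0.27, adjusted p = 0.0272), and its adjusted p was 0.0517, 0.0748, 0.0582 and 0.0991 without pool 1, 2, 3 and 4. With centred arrays Olfr818 also passed in vehicle pools (0.0109).

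Olfr812 was the lowest of the family in both treatments (-1.76 ± 0.40, adjusted p = 0.00451, and -1.33 ± 0.40, adjusted p = 0.0307), with no GFP+ array above the background floor and GFP- values close to it. In vehicle pools its call was lost with centred arrays (0.0542), quantile normalization (0.0994), array weights (0.0543) or only the arrays compared (0.0772), and without pool 3 or 4 (0.0711 and 0.13). Olfr805, also named after its values were seen, was 2.54-fold lower in 2-hexanone pools (-1.34 ± 0.40, adjusted p = 0.0286). It did not pass in vehicle pools (-1.17 ± 0.40, adjusted p = 0.0574), where a random pool block (0.0243) and other alternatives gave a call. Without 2-hexanone pool 1, 3 or 4 it had adjusted p = 0.0821, 0.0741 and 0.0674 in the 2-hexanone comparison. Olfr782, under the floor on all arrays, was called lower in vehicle pools (adjusted p = 0.0166) and lost the call without vehicle pool 1, 3 or 4 (0.0856, 0.0638 and 0.0799) and with array weights (0.0705).

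The small families add receptors in both directions. Olfr820 (MOR116-1), the brightest of the cluster in GFP- cells, had 12.45, 12.22, 12.55 and 12.58 in GFP+ cells, against 13.21, 12.73, 13.85 and 13.45 in GFP- cells of 2-hexanone pools, and 11.88, 12.08, 12.41 and 12.52 against 13.14, 13.10, 13.62 and 12.96 in those of vehicle pools. It was 1.81-fold lower (-0.86 ± 0.23, adjusted p = 0.0143) and 1.97-fold lower (-0.98 ± 0.23, adjusted p = 0.00527). In 2-hexanone pools it was not called with arrays centred on their medians (adjusted p = 0.0792), or without pool 1, 3 or 4 (0.0502, 0.079 and 0.0634). Olfr807, the MOR117 gene, named after its values were seen, was lower in both treatments (-2.32 ± 0.53, adjusted p = 0.00454, and -2.56 ± 0.53, adjusted p = 0.00197), with none of 4 GFP+ arrays above the floor in 2-hexanone and 2 of 4 in vehicle pools.

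Olfr763 (MOR269-2), which opens the cluster, was higher in GFP+ cells of both treatments. It had 8.02, 7.41, 8.13 and 7.16 in GFP+ cells, against 6.82, 6.66, 5.6 and 7.07 in GFP- cells of 2-hexanone pools, and 8.55, 7.59, 7.95 and 7.41 against 7.00, 6.51, 6.51 and 6.65 in those of vehicle pools. Only 2 of 4 GFP- arrays lay above the floor in each treatment, and the fractions did not overlap (1.15 ± 0.31, adjusted p = 0.0166, and 1.21 ± 0.31, adjusted p = 0.0114). Without 2-hexanone pool 1 or 3 it had adjusted p = 0.0621 and 0.165, and without vehicle pool 3 it had 0.0669. Olfr821, the MOR109 gene, was 2.00-fold higher in 2-hexanone pools (1.00 ± 0.28, adjusted p = 0.0182), a call lost without any 1 of the 4 pools (0.0502, 0.0951, 0.067 and 0.0677), and had 0.68 ± 0.28 in vehicle pools (adjusted p = 0.112). Olfr790 (MOR112-1) was 2.18-fold higher in vehicle pools (1.13 ± 0.32, adjusted p = 0.02), a call lost without vehicle pool 3 (0.138) and with only the arrays compared (0.055). In 2-hexanone pools it had 0.49 ± 0.32 and was not called (adjusted p = 0.361), but it passed with centred arrays (0.0421). Olfr821 passed in vehicle pools with centred arrays (0.00798) and with the replicate number as a block (0.0442).

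The second comparison asked whether 2-hexanone changed the receptors' levels within a sorted fraction. None of the 54 was called in GFP+ cells, in GFP- cells, or for the change of the sort difference between treatments (limma, 4 pools per group, adjusted p = 1.0 for every member). Over all probe sets 0.00901% were called higher in GFP+ cells and 0% in GFP- cells, and 0.00901% for the change of the sort difference. At an unadjusted p below 0.05 there were 3 receptors (5.56%) in GFP+ cells, against 3.91% of all probe sets, 2 (3.70%) in GFP- cells, against 2.46%, and 1 (1.85%) for the change, against 2.93%. Medians over the 54 receptors were 0.02 in GFP+ and 0.15 in GFP- cells, and -0.13 for the change.

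In GFP+ cells the receptors of lowest p were Olfr784, Olfr786 and Olfr780. Olfr784 (MOR110-3) had 10.30, 9.99, 10.39 and 9.33 in 2-hexanone pools, against 9.78, 9.25, 8.54 and 9.29 in vehicle pools. These groups overlapped, and the estimate was 0.79 ± 0.27 (95% interval 0.22 to 1.35, unadjusted p = 0.00953). Olfr786 (MOR111-5) had 9.95, 9.70, 10.61 and 9.61 in 2-hexanone pools, against 9.42, 9.71, 8.54 and 9.49 in vehicle pools, an estimate of 0.68 ± 0.28 (0.08 to 1.28). Olfr780 had an estimate of -0.64 ± 0.30 (-1.26 to -0.02), at values below the background floor. The 2 groups of Olfr786 overlapped as well.

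In GFP- cells Olfr804, Olfr775 and Olfr786 had the lowest p. Olfr775 (MOR111-6) had 9.45, 9.15, 9.62 and 9.27 in 2-hexanone pools, against 8.73, 8.92, 8.92 and 8.97 in vehicle pools. The difference was 0.49 ± 0.19 (0.09 to 0.90, unadjusted p = 0.0202). Olfr804 (MOR110-7) had 8.11, 7.70, 8.40 and 7.90 in 2-hexanone pools, against 7.89, 7.18, 7.71 and 6.73 in vehicle pools (0.65 ± 0.25, 0.12 to 1.19, unadjusted p = 0.0199). Olfr786 had 0.59 ± 0.28 (-0.01 to 1.18).

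For the change of the sort difference with 2-hexanone, Olfr780 had -0.88 ± 0.42 (unadjusted p = 0.0491), Olfr775 had -0.53 ± 0.27 (unadjusted p = 0.0697) and Olfr781 had -1.03 ± 0.62 (unadjusted p = 0.116). The estimates for single receptors ran from -0.65 to 0.84 in GFP+ and from -0.73 to 0.77 in GFP- cells. Intervals still allowed sizeable changes. Olfr802, the highest estimate in GFP+ cells, had an interval of -0.14 to 1.82, and Olfr815, the lowest in GFP- cells, one of -1.55 to 0.09. A p that misses the threshold does not show that a receptor's level was the same in both treatments.

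**Figure D5:**
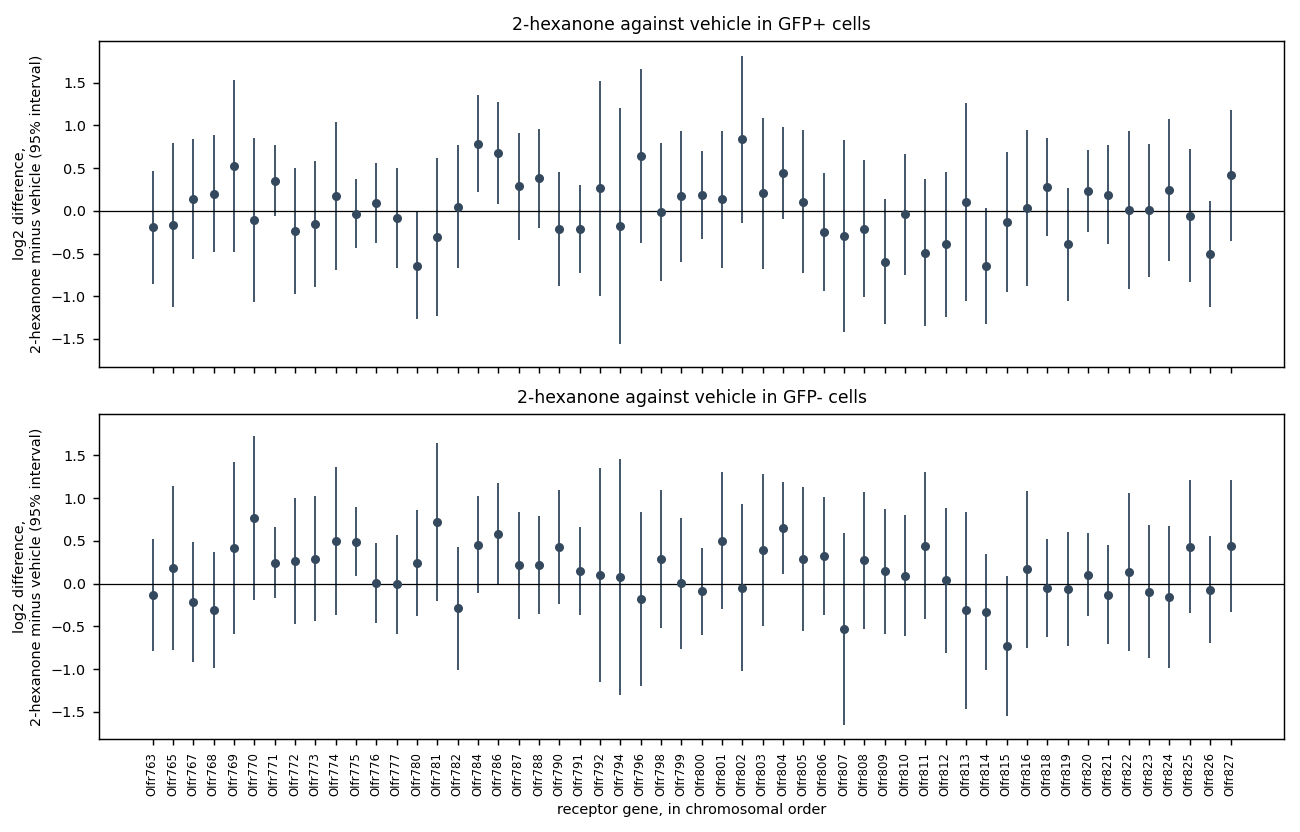
Difference between 2-hexanone and vehicle pools (log2, with 95% interval, 4 pools per group) for each receptor in chromosomal order, in GFP+ cells (top) and GFP- cells (bottom). Estimates lie between -0.73 and 0.84, and none passed after adjustment.

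Genes that receptors work with were set beside these results. Of 20 measured signalling and trafficking genes, in 2-hexanone pools 4 were higher in GFP+ cells and 2 lower (median 0.38), and in vehicle pools 6 were higher and 2 lower (median 0.29). Over all probe sets 5.29% were higher and 9.56% lower in 2-hexanone pools, and 5.83% higher and 9.86% lower in vehicle pools. The counts of lower genes lay near these shares. Pde1c, a phosphodiesterase of olfactory cilia that degrades cyclic AMP, was higher in both (1.10 ± 0.18, adjusted p = 0.0002, and 0.94 ± 0.18, adjusted p = 0.000945). Gnas, a stimulatory G protein subunit, was lower (-4.25 ± 0.36, adjusted p = 6.3e-08, and -4.68 ± 0.36, adjusted p = 2e-08). Of 20 regulators of receptor gene choice, 2 were lower in 2-hexanone pools, and 1 was higher and 1 lower in vehicle pools, shares near those of all probe sets (9.56% lower in 2-hexanone pools, 5.83% higher and 9.86% lower in vehicle pools). Lbr, a protein of the inner nuclear membrane that tethers heterochromatin, was lower in both (-2.18 ± 0.30, adjusted p = 2.41e-05, and -2.06 ± 0.30, adjusted p = 4.71e-05). No gene of these lists was called for 2-hexanone in either fraction.

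Many markers of other cells moved with the sort in the same direction as the receptors that were lower, and none of them was called higher. All 15 immune markers were lower in GFP+ cells, with mean levels of 4.91 to 5.24 in GFP+ samples, against 11.47 to 12.06 in GFP- samples, of 2-hexanone pools, and of 4.77 to 5.21 in GFP+ samples, against 10.41 to 12.53 in GFP- samples, of vehicle pools. Of 8 markers of immature olfactory sensory neurons 5 were lower in 2-hexanone and 6 in vehicle pools. Their mean level was 9.27 to 9.91 in GFP+ samples, against 11.33 to 11.75 in GFP- samples, of 2-hexanone pools, and 9.2 to 9.85 in GFP+ samples, against 11.42 to 11.86 in GFP- samples, of vehicle pools. In each treatment the lower ones included 5 of 7 sustentacular, 5 of 5 microvillous, 3 of 6 basal, 2 of 4 endothelial and stromal and 1 of 5 gland markers, and the 1 erythroid marker measured. The remaining markers of these cells were not called, and the gland marker called was Ltf (-8.15 in 2-hexanone and -7.81 in vehicle pools). Over all probe sets 9.56% were lower in 2-hexanone and 9.86% in vehicle pools. Of 10 markers of mature neurons none was lower, 1 was higher in 2-hexanone pools and 2 in vehicle pools. The part of these cells in the receptors' differences was not tested.

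The sequence before the coding start was searched for a pair of motifs on both strands, over 250 bases in the 43 receptors with a RefSeq window. The homeodomain core TAATTA was found in 7 windows (16.3%), in 18.0% of 921 receptor windows and in 4.84% of 32851 windows of all genes. Of the 7 receptors with it, Olfr788 was higher in GFP+ cells of both treatments and Olfr770, Olfr792 and Olfr820 were lower in both. The letters TATAAA were found in 24 windows (55.8%), in 39.4% of receptor windows and in 12.4% of all windows. Of these 24 receptors 3 were higher and 10 lower in each treatment. Over all 54 receptors 14.8% were higher and 35.2% lower in each treatment. Whether either motif goes with a direction was not tested. Most of these windows end at a coding start and not at a known transcription start, so a match describes letters and no site.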

How the data were processed

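Total RNA of GFP+ and GFP- cells of 8 pools was measured on 16 single-channel Clariom S mouse arrays. The authors deposited 1 log2 signal for each probe set and array. Per the submitters' processing notes they used Affymetrix Expression Console; its version, the summarisation method and the build were not given in the sources used here. Of 28846 rows, 6640 control rows were left out and 22206 probe sets tested. An annotation table gave 19572 of them 1 symbol and none several, and 2634 stayed unnamed. All 19572 Entrez identifiers matched the gene table of GRCm38.p6, which gave MOR names, chromosomes and gene order. Gene coordinates are given for the RefSeq windows alone.

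Sample titles gave the groups and the replicate numbers. The fit used limma 3.58.1 in R 4.3.3 (lmFit, eBayes) on all 16 arrays with a mean for each of 4 groups, no covariate, 12 residual degrees of freedom and Benjamini-Hochberg adjustment over all 22206 probe sets, with calls at adjusted p below 0.05. It was tested on simulated data. The 5 contrasts set GFP+ against GFP- cells within each treatment and 2-hexanone against vehicle within each fraction, and tested the change of the sort difference. Replicates are pools of different mice, so p-values measure the spread between pools and not between single mice. No 2 arrays held identical values (highest r = 0.992), and precision is limited by the number of arrays.

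The highest of 23 antigenomic bins set each array's background floor (mean 6.61). Where all 4 dimmer arrays lay under it, folds are bounds, with each dim array at the higher of its value and floor. Folds are left out where both groups lay under it or where the bound fell below 1.

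The sample titles give both fractions of a pool the same treatment and replicate number, but do not state that the mice are the same. Both fractions of a pool were taken to come from the same mice. Deviations of its GFP+ and GFP- arrays from their group means had correlations of 0.425, 0.0749, 0.161 and 0.109 in 2-hexanone pools 1 to 4 and of 0.352, 0.0136, 0.0516 and 0.0837 in vehicle pools 1 to 4 (consensus 0.171). Alternatives were a pool block (random or fixed), the replicate number as a block, quantile normalization, centred arrays, the lowest 20% of probe sets left out, a trended robust prior, array weights, only the arrays compared, and each pool left out.

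The members and gene lists were chosen with earlier results of these data known. Named members were, per sort contrast, the 7 highest and 7 lowest called; per odor contrast and for the change, those of lowest p; the 5 of highest mean; the first and last; and the highest and lowest of each family of at least 3. Others are marked as chosen after their values were seen. Pairs with similar coding starts replaced a planned choice by protein identity. The 5 shown were picked by their sort differences, and 4 pairs as close as some of them or closer (Olfr765 and Olfr767, Olfr782 and Olfr804, Olfr805 and Olfr806, Olfr784 and Olfr805) are not shown. Plots used Python 3.11.15 and matplotlib 3.10.9.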

Additional observations from a re-analysis of the deposited data

Results flagged for a closer look

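Single arrays stood apart from the other 3 of their group in 2 of 124 groups examined over the 31 named receptors, by a Dixon test that chance passes in about 5% of groups. Olfr809 stood at 4.06 in GFP+ cells of 2-hexanone pool 4, while the other GFP+ samples of that treatment stood at 5.38 to 5.56. All 4 values lie under the background floor. Olfr812 stood at 8.04 in GFP- cells of vehicle pool 1, while the other GFP- samples of that treatment stood at 6.18 to 6.45, near the floor.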

How the results depend on the processing

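The counts of receptors called for 2-hexanone, and for the change of the sort difference, were 0 under every alternative run, and no call changed direction. Medians did turn: centring took the vehicle median of the sort difference to 0.193, against -0.169. With the pool as a replicate block, 21 receptors were lower and 8 higher in 2-hexanone pools (random) or 21 and 9 (fixed), and in vehicle pools 20 and 8 (random) or 21 and 8 (fixed). With the replicate number as a block they were 21 and 8, and 21 and 9. The changes of call under a pool block are those given for Olfr804, Olfr805 and Olfr810. Olfr823 also passed as higher in 2-hexanone pools with a fixed pool block (adjusted p = 0.0339), at values under the floor. Centring each array raised the receptors called higher to 15 in 2-hexanone and 13 in vehicle pools, and the median in 2-hexanone pools to -0.083, while all probe sets called higher rose to 8534 from 1175 and to 8986 from 1295. By construction it adds a constant to every probe set of an array. Leaving out each pool in turn gave 4 to 8 receptors higher and 15 to 19 lower in 2-hexanone pools (4 higher without pool 1 or pool 4, and 5 without pool 2 or 3), and 5 to 8 higher and 15 to 19 lower in vehicle pools (5 higher without pool 3). These fits have fewer samples. The median change of the sort difference ran from -0.243 to 0.011, above 0 without 2-hexanone pool 3, and the cause was not tested. Calls kept under all alternatives numbered 2 of 8 higher and 15 of 19 lower in 2-hexanone pools, and 4 of 8 and 15 of 19 in vehicle pools. Olfr776 and Olfr788 are the 2 kept as higher in both treatments.

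With the 95th percentile of 5222 negative-control rows (8.53 to 9.47) as a stricter floor, 14 and 26 receptors lay above it on all 4 arrays of 2-hexanone GFP+ and GFP- cells, and 13 and 19 in vehicle GFP+ and GFP- cells. Bounds therefore depend on the floor. For Olfr825, only 2 of 4 GFP- arrays lay above the stricter floor in each treatment, and its bounds were computed with the lower floor alone. A choice between probe sets was not run, because all 54 receptors have 1. A fixed pool block was not run for contrasts between pools, nor the fit of only the arrays compared for the change of the sort difference.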
